A study of Camelus bactrianus with 10 samples.

Results

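Exosomes in the plasma of Bactrian camels carried 5 immune miRNAs in every library: miR-150-5p, miR-146a-5p, miR-155-5p, miR-342-3p and, at much lower levels, miR-146b-5p. Thin and normal camels overlapped in all 5, and no difference between the groups passed the test. The entries described here are all those that the table names miR-146a, miR-146b, miR-155, miR-150 or miR-342, whichever the arm, the species prefix or the note on changed ends or bases. They numbered 13 of 2581 entries, with 3 for miR-146a, 2 for miR-146b, 2 for miR-155, 3 for miR-150 and 3 for miR-342, and the rule picks them by name, without a measured value.

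Small RNA was sequenced from exosomes, the vesicles that cells shed into blood, of 5 camels labelled thin and 5 labelled normal. Body weights in the labels ran from 402.6 to 421.2 kg in thin and from 452.3 to 492.8 kg in normal camels, and the groups did not overlap in weight. The labels used here give neither group an age, a strain or a treatment, and exosomes of both were prepared by ultracentrifugation. The title links these exosomes to liver cancer, while the samples hold camel plasma alone.

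These miRNAs are known mainly from human and mouse blood cells. MiR-146a and miR-146b are transcribed from separate genes. MiR-146a is induced through NF-kB in inflammation, and both can damp that pathway by repressing its adaptors IRAK1 and TRAF6. MiR-155, processed from the BIC transcript (MIR155HG), rises in activated lymphocytes and macrophages and represses SOCS1 and SHIP1. MiR-150 is abundant in mature lymphocytes and represses the transcription factor MYB. MiR-342 lies in an intron of EVL and is also well expressed in lymphocytes. In plasma, fewer vesicles from a cell type and fewer copies per vesicle cannot be told apart.

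The sequences show why miR-146a and miR-146b can share targets and how closely the entries of each name resemble each other. Each line gives an entry as the table names it and its sequence in DNA letters, 5′ to 3′, with the seed (bases 2 to 8) in capitals.
hsa-miR-146a-5p: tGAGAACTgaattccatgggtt
mmu-miR-146a-5p_R+1: tGAGAACTgaattccatgggtta
mmu-miR-146a-5p_R+1_1ss9GT: tGAGAACTtaattccatgggtta
hsa-miR-146b-5p_R+1: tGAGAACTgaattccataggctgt
hsa-miR-155-5p_R-1: tTAATGCTaatcgtgataggggt
hsa-miR-150-5p: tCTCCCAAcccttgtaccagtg
mdo-miR-150-5p_R-2: tCTCCCAAcccttgtaccaga
hsa-miR-342-3p: tCTCACACagaaatcgcacccgt

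Positions are counted from 1 at the 5′ end. The miR-146a and miR-146b entries had the same seed, and over 22 compared positions they differed by G18A and T21C, with miR-146a given first. The second miR-146a entry was the first with 1 more base at its 3′ end, for 23 bases in all. The third miR-146a entry was that 23-base form with the substitution G9T, just after the seed. The weaker miR-150 entry differed from the main one by T21A and was shorter. Seeds were shared between miR-146a and miR-146b and otherwise among entries of 1 miRNA only.

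Libraries summed to between 532999 and 757352 normalized counts, and their estimated depth ran from 252630 to 2237451 reads, with normal 4, normal 5 and thin 4 the deepest. Normal 4 and normal 5 stood apart from the other 8 libraries. Entries named after a chromosome 19 miRNA cluster known only from primates made up 0.480% and 0.438% of these libraries and at most 0.0103% of any other. Red blood cell miRNAs, 7 of 7 listed names present, held 15.8% to 30.2% of normal and 8.42% to 15.7% of thin libraries. Myeloid miRNAs, 3 of 3 present, held 0.580% to 1.14% of normal and 1.22% to 2.74% of thin libraries. This set holds miR-142-3p but leaves out miR-142-5p, the more abundant arm. The log2 fold change of miR-142-5p, thin over normal, was -0.13 (limma adjusted p = 0.910). Also in the set is miR-223-3p, a miRNA of platelets as well as granulocytes, so the share is not specific to myeloid cells. The groups did not overlap in the red blood cell or the myeloid share. Red blood cell shares nearly met, at 15.77% in normal 1 and 15.72% in thin 1. Of 6 tested red blood cell names, 1 was lower in thin camels at a limma adjusted p under 0.05 and 0 were higher. Of all tested names, 0.701% were lower and 0.935% higher at that threshold. Platelet miRNAs, 5 of 5 present, ran from 4.76% to 7.87% and from 6.25% to 10.2%, and liver miRNAs, 4 of 6 present, from 3.62% to 14.4% and from 2.21% to 10.8%. The part of cell composition, of depth and of normal 4 and normal 5 in the values below was not tested except where values without those libraries are given.

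**Figure D1:**
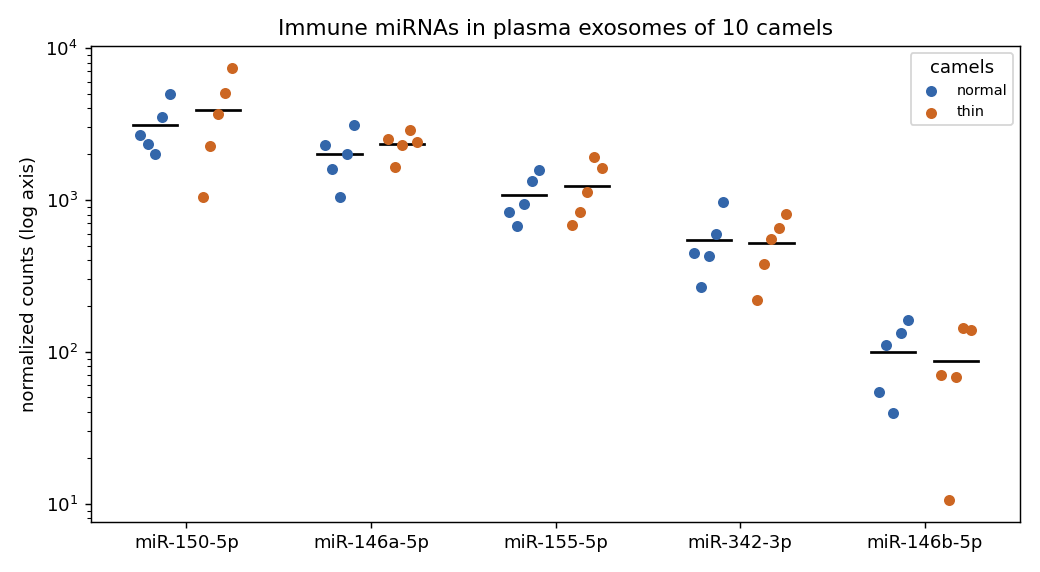
Normalized counts on a log axis of the 5 immune miRNAs that passed the filter, in 5 normal (blue) and 5 thin (orange) camels, 1 point per library in the order of its number and a bar at the group mean. The groups overlap for every miRNA, and the lowest point is miR-146b-5p in thin 2 at 10.5.

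MiR-146a-5p, the miRNA induced through NF-kB, stood at 2303, 1593, 1038, 2001 and 3089 normalized counts in normal 1 to 5. In thin 1 to 5 it stood at 2513, 1641, 2287, 2865 and 2396. The normal group held both the lowest and the highest library, so the thin values lay within its range. The normal mean was 2005 ± 770 and the thin mean 2341 ± 447 (SD, n = 5 each), and the log2 fold change of thin over normal was 0.29 ± 0.29 (SE, 95% interval -0.33 to 0.91, limma adjusted p = 0.721).

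MiR-146b-5p, with the same seed, was far scarcer. Its normalized counts were 54.4, 111, 39.8, 133 and 162 in normal 1 to 5 and 70.7, 10.5, 68.2, 143 and 140 in thin 1 to 5. Thin 2 lay below all other libraries, and its value rests on 5 estimated reads, about the fewest that the table lists. The other 4 thin libraries lay within the normal range. Means of 100.1 ± 52.0 in normal and 86.4 ± 55.6 in thin camels gave a log2 fold change of -0.45 ± 0.69 (95% interval -1.96 to 1.06, limma adjusted p = 0.844). Without thin 2 the log2 fold change was 0.17.

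The ratio of miR-146a-5p to miR-146b-5p was 42.3, 14.4, 26.1, 15.0 and 19.05 in normal 1 to 5 and 35.5, 155.6, 33.5, 20.1 and 17.2 in thin 1 to 5. Apart from thin 2, the thin ratios lay within the normal range. Mean log2 ratios differed by 0.74 between thin and normal camels, and by 0.24 without thin 2 (two-sided exact permutation test with all libraries, p = 0.278). MiR-146b-5p made up 0.639% to 6.50% of the sum of both over the 10 libraries.

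MiR-155-5p, the miRNA of activated lymphocytes and macrophages, had 834, 676, 936, 1322 and 1583 normalized counts in normal 1 to 5. The thin libraries had 679, 835, 1122, 1927 and 1625. In each group libraries 4 and 5 were the highest, and the ranges nearly coincided at their lower ends. The means were 1070 ± 372 and 1238 ± 527.2, a log2 fold change of 0.17 ± 0.34 (95% interval -0.56 to 0.90, limma adjusted p = 0.879).

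Among the lymphocyte miRNAs, miR-150-5p was the most abundant of the 5 by its mean over all libraries, with rank 38 among 726 mature names. It stood at 2688, 2347, 2001, 3493 and 4969 normalized counts in normal 1 to 5, and at 1040, 2253, 3670, 5012 and 7426 in thin 1 to 5. The thin group held both the lowest and the highest library and spanned 7.14-fold, against 2.48-fold in the normal group. Means of 3100 ± 1182 and 3880 ± 2481 gave a log2 fold change of 0.11 ± 0.46 (95% interval -0.89 to 1.11, limma adjusted p = 0.960).

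MiR-342-3p, from the EVL intron, had 449, 266, 425, 597 and 973 normalized counts in normal 1 to 5 and 220, 378, 548, 651 and 803 in thin 1 to 5. Normal 5 was the highest library and thin 1 the lowest, and both groups spanned a similar range, 3.65-fold in normal and 3.64-fold in thin camels. The means were 542 ± 268 and 520 ± 228, a log2 fold change of -0.06 ± 0.41 (95% interval -0.95 to 0.83, limma adjusted p = 0.976). Here the sign rested on the scaling: with all libraries set to the same total the value was 0.12, while the median of all tested names moved from -0.02 to 0.16.

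Thus 0 of the 5 tested immune names passed the adjusted threshold of 0.05 in limma, and 0 had an unadjusted p under 0.05. Over all 428 tested names, 1.64% passed the adjusted threshold and 12.1% had an unadjusted p under 0.05. Groups that did not overlap were found for 0 of the 5 and for 3.97% of all tested names. The median log2 fold change was 0.11 for the 5 names and -0.02 for all tested names. The 95% intervals given above all include 0, and they do not exclude a difference of up to 0.83 in favour of thin camels for any of the 5. Nor do they exclude lower levels in thin camels, with lower ends from -1.96 for miR-146b-5p to -0.33 for miR-146a-5p.

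Leaving out normal 4 and normal 5, the libraries that stood apart, raised every value. The log2 fold changes of thin over normal then became 0.44 for miR-150-5p, 0.56 for miR-146a-5p, 0.51 for miR-155-5p, 0.35 for miR-342-3p and 0.04 for miR-146b-5p. All 5 stayed far from the threshold, with limma adjusted p from 0.656 to 0.982.

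**Figure D2:**
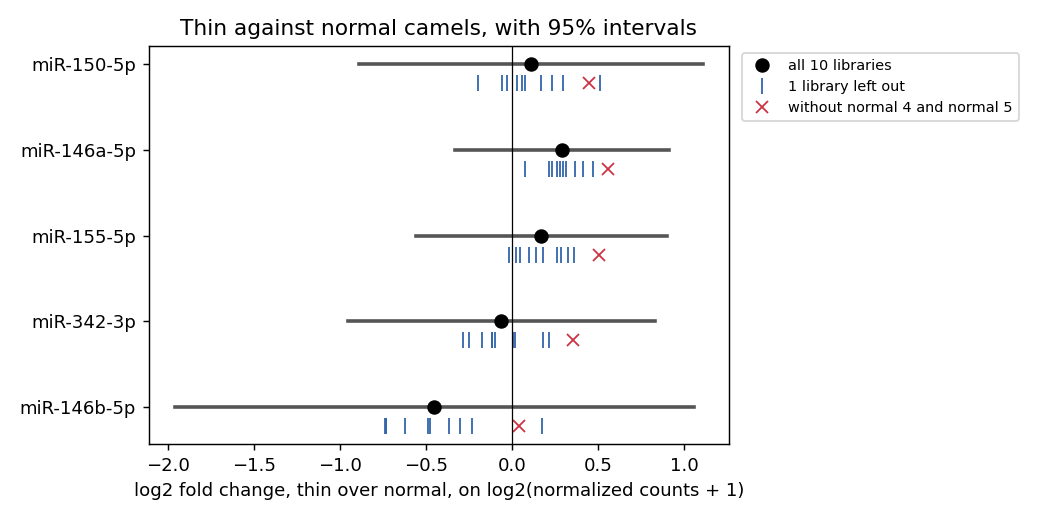
Log2 fold change of thin over normal camels, on log2(normalized counts + 1), for the 5 immune miRNAs: all 10 libraries with 95% intervals (black), each library left out in turn (blue ticks), and normal 4 and normal 5 left out together (red crosses). Every interval includes 0, and the red crosses lie to the right of the black points.

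The levels kept nearly the same order from camel to camel: miR-150-5p, miR-146a-5p, miR-155-5p, miR-342-3p and miR-146b-5p. Library preparation captures different miRNA sequences unequally, so levels of different miRNAs compare reads and not molecules. The order held in 9 libraries, and in thin 1 miR-146a-5p at 2513 stood above miR-150-5p at 1040. The other neighbours kept their order in 10 of 10 libraries. Across libraries, the ranges of miR-150-5p and miR-146a-5p overlapped, as did those of miR-146a-5p and miR-155-5p and of miR-155-5p and miR-342-3p. Only miR-342-3p and miR-146b-5p were apart, with the lowest miR-342-3p at 220 and the highest miR-146b-5p at 162. All 13 entries together made up 0.586% to 1.46% of normal and 0.653% to 2.01% of thin libraries.

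The 5 remaining entries were weak and were not tested, since none reached 10 normalized counts in 5 libraries. Those of the opposite arms were miR-342-5p, above 0 in 5 libraries with at most 25.4 normalized counts, miR-146b-3p, above 0 in 2 with at most 8.58, and miR-155-3p, in normal 4 alone at 4.29. The miR-342 entry with no arm in its name read tCTCACACagaaatcgcaccca, the sequence of miR-342-3p with G22A and 1 base fewer, and reached 25.1 in normal 4. The miR-150 entry with no arm in its name, aATCTCCCaacccttgtaccagtg, began 2 bases earlier and so had another seed, and its highest value was 11.1 in thin 5. A value of 0 here means a count below about 5 reads and does not show absence. No hairpin of the 5 had both arms tested, so no ratio of arms was compared between the groups for them. The arms that passed the filter are those known to dominate in human and mouse blood cells.

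No entry of miR-146a-5p passed the adjusted threshold on its own. The 23-base entry stood at 526.4, 358, 282, 243 and 431 normalized counts in normal 1 to 5 and at 701, 447, 638, 760 and 657 in thin 1 to 5. All thin libraries except thin 2 lay above every normal library, and thin 2 lay below normal 1 alone. Means were 368 ± 114 and 641 ± 118, a log2 fold change of 0.83 ± 0.28 (95% interval 0.23 to 1.43) with an unadjusted p of 0.0105 in limma and an adjusted p of 0.223 over 468 entries. Of the 8 tested entries, 1 had an unadjusted p under 0.05, against 11.8% of all 468, and 0 passed the adjusted threshold, against 1.92%. None of the 8 had groups that did not overlap, against 3.63% of all.

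The 22-base entry of miR-146a-5p, the main form, had 1660, 1100, 675, 1355 and 1982 normalized counts in normal 1 to 5 and 1561, 1034, 1440, 1863 and 1498 in thin 1 to 5. The thin values lay within the normal range, and the log2 fold change was 0.19 ± 0.29 (SE, adjusted p = 0.829 in limma). It made up 64.2% to 72.1% of miR-146a-5p in normal and 62.1% to 65.0% in thin libraries. Per copy of the 22-base form, the 23-base form was found at 0.317, 0.325, 0.418, 0.179 and 0.218 in normal 1 to 5 and at 0.408 to 0.449 in the thin libraries. Normal 4 and normal 5 held the lowest ratios, and normal 3 reached into the thin range.

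Group means of that ratio were 0.292 ± 0.0946 in normal and 0.434 ± 0.0158 in thin camels. The log2 difference was 0.64 ± 0.27, with an unadjusted p of 0.0425 and an adjusted p of 0.189 over 40 isomiR ratios in limma, of which 0% passed, 22.5% had an unadjusted p under 0.05 and 2.5% had groups that did not overlap. The isomiR ratios were added after the values were seen. Without normal 4 and normal 5 the log2 difference was 0.31.

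The entry with G9T had 116, 135, 80.5, 403 and 676 normalized counts in normal 1 to 5 and 251.7, 160, 209, 242 and 241 in thin 1 to 5. Normal 4 and normal 5 were the highest libraries and the other normal libraries the lowest, so the thin values lay between them. Its share of miR-146a-5p was 5.05%, 8.47%, 7.76%, 20.1% and 21.9% in normal 1 to 5 and 8.45% to 10.1% in thin libraries. The log2 fold change was 0.10 ± 0.53 (limma adjusted p = 0.963).

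In normal 4 and normal 5 the unchanged 23-base entry took its lowest shares of miR-146a-5p, 12.1% and 13.97%, and the G9T entry its highest. The G9T entry exceeded it there 1.66-fold and 1.57-fold, while it stood at 0.221 to 0.377 of it in normal 1 to 3 and at 0.318 to 0.367 in thin libraries. Both 23-base entries together varied less, at 27.9%, 30.9%, 34.9%, 32.3% and 35.8% of miR-146a-5p in normal 1 to 5 and 35.0% to 37.9% in thin libraries.

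**Figure D3:**
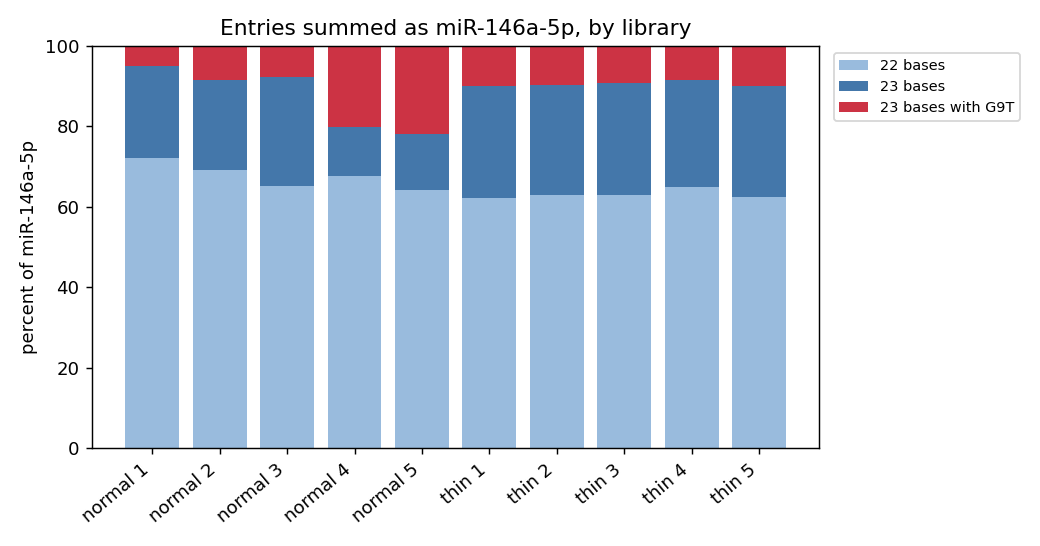
Share of miR-146a-5p, in percent, held by its 3 entries in each library: 22 bases (light blue), 23 bases (dark blue) and 23 bases with G9T (red). The red share is 20.1% and 21.9% in normal 4 and normal 5 and at most 10.1% in the other 8 libraries.

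The same substitution was noted on many other miRNAs. Of 331 entries with a substitution note, 48 carried G9T, and the next most frequent substitution and position had 10 entries. In 30 of the 48, normal 4 and normal 5 were the highest libraries. The 47 G9T entries of other hairpins together made up 0.641% of normal 4, 0.784% of normal 5 and at most 0.0122% of any other library, and 36 of them were listed at 0 in every thin library. The same counts over all entries are not given. Normal 4 and normal 5, the deepest libraries, listed 1078 and 1042 entries of any kind above 0, and the others 656 to 883. Of the 48, 35 were outside the primate cluster. Only the miR-146a entry was above 0 in all 10 libraries. What produced the G9T entries was not tested, and leaving out entries with a substitution note gave miR-146a-5p a log2 fold change of 0.35 in place of 0.29.

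The weaker miR-150-5p entry was listed at 0 in 3 libraries and at 5.99 to 24.5 normalized counts in the other 7, against 1040 to 7409 for the main entry. Its fitted log2 fold change of 0.49 ± 1.27 depends on the pseudocount where a library is at 0 (limma adjusted p = 0.914).

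Over the 10 libraries, the profiles of miR-155-5p, miR-150-5p and miR-342-3p were closer to each other than those of the miR-146 pair. Likeness was measured as the root mean square difference between log2 profiles, each centred on its own mean, so that smaller values mean more alike. The profiles share libraries and their scaling, and the values are descriptions over 10 libraries. The difference was 0.27 between miR-155-5p and miR-342-3p, 0.33 between miR-150-5p and miR-342-3p and 0.41 between miR-150-5p and miR-155-5p. Of all 91378 pairs of tested names, 0.336%, 0.803% and 1.82% were closer, and the median over pairs was 1.68. The measure is not scaled by spread, so names that vary less tend to lie closer. Within groups the median SD of tested names was 0.99 on the log2 scale. It was 0.57 for miR-155-5p, 0.71 for miR-342-3p and 0.86 for miR-150-5p. MiR-146a-5p and miR-146b-5p differed by 0.94, and 19.7% of pairs were closer. That difference rests largely on thin 2, where their centred values were -0.34 and -2.72. There miR-146b-5p had 5 estimated reads. For miR-146a-5p, miR-155-5p ranked 31 and miR-146b-5p ranked 197 in likeness among the 427 other names. For miR-155-5p, miR-342-3p ranked 6 and miR-150-5p ranked 20, behind names outside the 5.

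**Figure D4:**
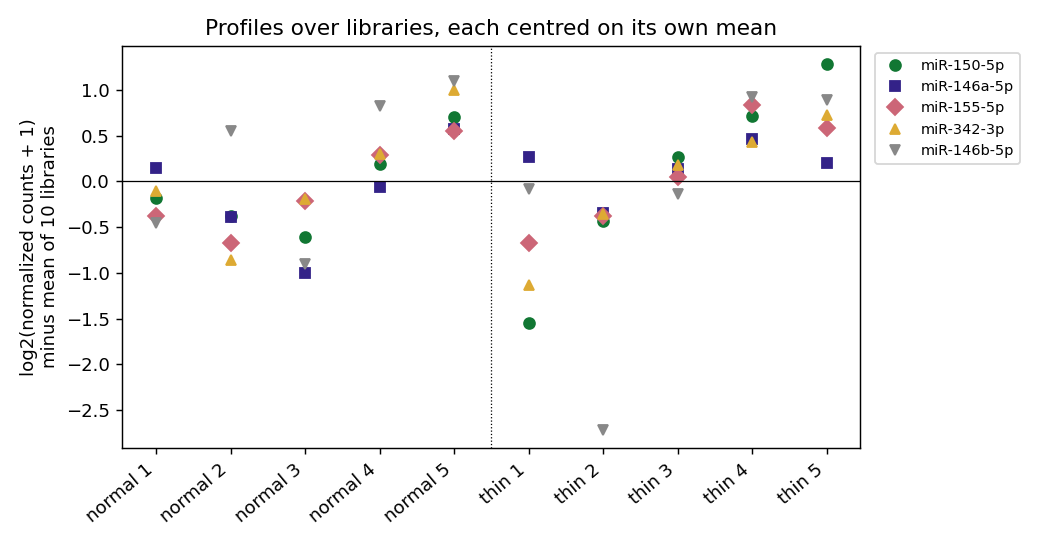
Log2(normalized counts + 1) of the 5 immune miRNAs minus their mean over 10 libraries, by library. MiR-155-5p, miR-150-5p and miR-342-3p are low in thin 1 and high in normal 5, thin 4 and thin 5, while miR-146a-5p stays above its mean in thin 1 and miR-146b-5p falls far below its mean in thin 2.

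The closest profile to miR-155-5p was that of miR-26b-5p, an abundant miRNA encoded in an intron of CTDSP1, at a difference of 0.10, and 0.0109% of pairs were closer. MiR-26b-5p stood at 8943, 7043, 8414, 14211 and 18065 normalized counts in normal 1 to 5 and at 6748, 8794, 11008, 17662 and 15563 in thin 1 to 5. It was 8.99 to 11.4 times as abundant as miR-155-5p in every library, a narrower range than that of either level. Next to miR-155-5p came miR-664-5p at 0.20 and miR-191-5p at 0.25. MiR-26b-5p was also the closest to miR-342-3p, at 0.23, before miR-155-5p and miR-150-5p.

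The 3 closest to miR-150-5p were miR-342-3p, miR-1296-5p at 0.38 and miR-26b-5p at 0.40. For miR-146a-5p they were miR-27b-3p at 0.31, miR-361-5p at 0.33 and miR-340-5p at 0.34. For miR-146b-5p they lay further off, with miR-28b at 0.63, miR-340-3p at 0.66 and miR-450b-5p at 0.69. Of all pairs, 7.79% were closer than miR-146b-5p and miR-28b. The largest deviation in the profile of miR-146b-5p was the low value of thin 2.

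Other miRNAs of inflammation and of white blood cells gave the setting for these values. Of 12 miRNAs listed as linked to NF-kB signalling, 10 were in the table and 9 were tested, of which 1 was called higher and 0 lower in thin camels. Their log2 fold changes had a median of 0.35. Of all tested names, 0.935% were called higher and 0.701% lower. The called one was miR-21-5p, a miRNA raised in inflammation and in many tumours, which went from 37673 ± 5399 to 83219 ± 17700 normalized counts. Its log2 fold change was 1.13 ± 0.20 (limma adjusted p = 0.00841), and the call was lost without normal 4 and normal 5 (1.04, adjusted p = 0.125), without the 3 deepest libraries (1.003, adjusted p = 0.242) and without the mean trend (adjusted p = 0.104). MiR-221-3p and miR-222-3p, a pair from a shared cluster, were next in abundance, with log2 fold changes of 0.79 (limma adjusted p = 0.147) and 0.35 (adjusted p = 0.714).

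Of 11 other leukocyte miRNAs, all 11 were tested and 0 were called, and their median was 0.18 on the log2 scale, against -0.02 over all tested names. The most abundant were miR-92a-3p, of the miR-17 cluster, at -0.58 (limma adjusted p = 0.251), miR-142-5p, from a hairpin expressed throughout blood cells, at -0.13 (adjusted p = 0.910), and miR-223-3p, a miRNA of granulocytes and platelets, at 0.96 (adjusted p = 0.147). The other arm of the miR-142 hairpin, miR-142-3p, named after its values were seen, averaged 1062 ± 239 in normal and 2433 ± 1194 in thin camels. Its groups did not overlap, and its log2 fold change was 1.11 ± 0.31 (limma adjusted p = 0.130). Of the 3 myeloid miRNAs behind the share given above, 0 were called.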

How the data were processed

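Per the labels' protocols, exosomes were pelleted from plasma, the mirVana kit gave the RNA, the TruSeq small RNA kit the libraries and a HiSeq instrument the reads, and ACGT101-miR removed adapter dimers, junk, rRNA, tRNA, snRNA, snoRNA and repeats. A miRNA that resembles such an RNA could lose reads at that step. The protocol speaks of 9 libraries, while labels and table give 10, so each n = 5 rests on the labels. Replicates are different camels. What was deposited is a signal per entry and camel, called normalized counts in the authors' headers. Not given in the sources used here were its scaling, mapping reference, miRBase version and minimum count. No genome was used.

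Low values in a library were multiples of a step, within 0.02 of it, in 98.8% to 99.9% of cases below 200 steps. Of 3001 values of predicted entries 98.5% were an even number of steps, against 83.0% of 3195 values of entries with a miRNA name. The smallest value of a library lay between 3.00 and 5.00 steps. From the predicted entries, 1 read was taken as 2 steps, with odd numbers taken as reads halved between entries, which was not tested. Depth in reads would double if it were 1 step. By that estimate 98.7% of positive values of predicted entries were at least 5 reads. All 33 low values of the immune entries were an even number of steps. Over all entries with a miRNA name the 83.0% left many values that were not whole reads, so no count test was run.

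The design named a count model for raw counts and limma for normalized values, and the latter was used: limma 3.58.1 in R 4.3.3 with a mean trend on log2(value + 1), group as the only term, all 10 libraries, and features at 10 or more in at least 5 libraries. This tested 468 entries, and 428 mature names after summing entries per name. Fold changes on this scale understate changes of low miRNAs. P was two-sided and adjusted by Benjamini-Hochberg over all tested features, with a threshold of 0.05. The ratio of 5p to 3p arms was tested in 61 hairpins, and isomiR ratios, an addition, in 40, without the trend. The fit was tested on simulated data. Intervals on shares of reads are not given, and every SD and SE covers camels and library preparation together.

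Named miRNAs were all entries of the 5 members, the 3 nearest profiles of each tested member, and the called or 3 most abundant tested miRNAs of each list. Members and lists were chosen with earlier results of these data known. Alternatives were other pseudocounts, scalings, filters, variance models and floors, libraries left out, summing rules and a replicate block. Python 3.11.15, numpy 2.4.6, pandas 2.3.3 and matplotlib 3.10.9 were also used.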

Additional observations from a re-analysis of the deposited data

Results flagged for a closer look

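The ratio of miR-146a-5p to miR-146b-5p in thin 2 was 155.6, far from the other thin libraries, which lay between 17.2 and 35.5. The gap to the nearest thin library was 0.867 of the range of the group, above Dixon's value of 0.71 for 5 samples. On the log2 scale, on which the ratio was tested, the gap was 0.660 of the range and below that value. Of 30 groups of 5 values checked this was the only outlier, and chance alone gives about 1 in 20. Thin 2 was the shallowest library, and its miR-146b-5p value rests on 5 estimated reads.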

How the results depend on the processing

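Of 276 alternative values of 13 results on the immune miRNAs (5 names, 4 entries, 3 isomiR ratios and the ratio of miR-146a-5p to miR-146b-5p), 248 kept their direction, 28 reversed and 0 passed the threshold. The lowest adjusted p was 0.0865, for the 23-base miR-146a-5p with equal library totals (log2 fold change 1.02). Log2 fold changes that reversed outside the runs that left out 1 library were miR-155-5p at -0.047 with sample quality weights, miR-342-3p at 0.12 with equal totals, 0.35 without normal 4 and normal 5 and 0.24 without the 3 deepest libraries, and miR-146b-5p at 0.041 without normal 4 and normal 5. The miR-146a entry with G9T was -0.51 with sample quality weights. Its ratio to the 22-base entry, -0.09 with all libraries, was 0.57 without normal 4 and normal 5 and 0.62 without the 3 deepest, and the ratio of the 2 miR-150-5p entries was -0.025 at a pseudocount of 10. The causes were not tested.

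Leaving out each library in turn gave -0.20 to 0.51 for miR-150-5p (the lowest without thin 5), -0.016 to 0.36 for miR-155-5p, -0.28 to 0.21 for miR-342-3p and -0.74 to 0.17 for miR-146b-5p. It gave -0.034 to 0.35 for the 22-base miR-146a-5p, -0.23 to 0.53 for the G9T entry, -0.14 to 1.25 for the weaker miR-150-5p entry, -0.39 to 0.18 for the G9T ratio and -0.22 to 0.88 for the miR-150-5p ratio.

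Calls over all entries numbered 9, and 15 with no filter, 4 without the mean trend, 14 with sample quality weights, 3 without normal 4 and normal 5, 5 without the 3 deepest libraries and 6 to 14 with 1 library left out (14 without thin 1). Calls over all names numbered 7, and 12 with no filter, 11 at 10 or more in all libraries, 2 without the trend, 18 with weights, 1 without normal 4 and normal 5, 3 without the 3 deepest and 4 to 9 with 1 library left out (4 without normal 3, normal 5, thin 2 or thin 4). Arm ratios gave 0 calls, and 2 at 10 or more in all libraries and 0 to 1 with 1 library left out. IsomiR ratios gave 0, and 1 at a pseudocount of 10, with no filter or under the replicate block, and 0 to 1 with 1 library left out.

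The replicate numbers name different camels, and the correlations of same-numbered libraries, from -0.20 to 0.52, do not pair them. With the replicate block, 9 entries, 5 names and 0 arm ratios were called, and the log2 ratio of miR-146a-5p to miR-146b-5p stayed at 0.74 (exact permutation p = 0.3125).

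With 5 camels a group and SDs of 0.47 to 1.21 on the log2 scale within groups, changes of moderate size are hard to detect. MiR-146b-5p in the shallower libraries rests on few reads.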
